A study of Mus musculus with 4 samples.

Results

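The 8 genes Bcl6, Cux2, A1bg, Hao2, Hsd3b5, Elovl3, Cyp2d9 and Cyp17a1 were followed in mouse liver across puberty, in animals labelled Pnpla7-/- and in wild type. They were taken by matching the gene name printed for each non-control spot, and they are 8 of 30026 genes read by the arrays. Bcl6 and Cux2 are regulators, and the other 6 are liver genes of steroid, lipid and plasma protein biology, most of them known to differ between the sexes. The set was assembled with the ratios between these arrays already known, so its values are given as a description and carry no test. The 4 groups, all C57BL/6N, were Pnpla7-/- liver at 6 weeks, wild type liver at 6 weeks, Pnpla7-/- liver at 3 weeks and wild type liver at 3 weeks. Each group was 1 single-colour Agilent array hybridised with equal amounts of total RNA from the livers of 5 animals, so no comparison has a replicate. PNPLA7 is an enzyme that cleaves lysophosphatidylcholine. KO and WT stand below for the arrays labelled Pnpla7-/- and wild type, and the labels give no sex.

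Growth hormone reaches the liver of male rodents in pulses and that of females more evenly, and from puberty the difference sets a large share of sex-biased liver transcription through the transcription factor STAT5b. BCL6 is a repressor that is more abundant in male mouse liver and can occupy the DNA sites of STAT5, whereas CUX2 is a repressor that is more abundant in female mouse liver. A1bg and Hao2 are known as female-biased genes of mouse liver, and Hsd3b5, Elovl3 and Cyp2d9 as male-biased ones.

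On each array 28714 to 30697 of 43020 non-control spots were well above background by the scanner software's own flag, and none was saturated. The level of a gene below is its background-subtracted signal divided by the array's 75th percentile, and levels of different genes are not comparable, because each is read by another probe. The scanner software's error of a signal of these 8 genes was 10% to 14.4% wherever that signal was well above background. A log2 ratio of 2 arrays therefore carried an error of 0.20 to 0.27, which covers the measurement of the spots and leaves out differences between pools of animals. The 4 arrays shared 1 slide, and an effect of their place on it cannot be told apart from one of the group. The 15 hepatocyte markers were well above background on every array, with summed levels of 3054 in KO and 2800 in WT at 6 weeks and of 2632 in KO and 2736 in WT at 3 weeks. Of 15 skeletal muscle markers, all 15 were well above background in KO at both ages, against 10 in WT at 6 weeks and 5 in WT at 3 weeks. Their summed level was 48.7 in KO and 1.58 in WT at 6 weeks, and 74.4 in KO and 0.672 in WT at 3 weeks. Whether this muscle signal has a part in any value of the 8 genes was not tested. Xist, the RNA of the inactive X chromosome, had levels of 1.79 in KO and 1.47 in WT at 6 weeks and of 1.29 in KO and 1.27 in WT at 3 weeks. Of 4 Y-linked genes, none was well above background in KO at either age or in WT at 6 weeks, and Uty alone was in WT at 3 weeks, with a level of 0.222. Pnpla7, read by 1 probe, had levels of 4.42 in KO and 9.65 in WT at 6 weeks and of 6.70 in KO and 7.54 in WT at 3 weeks. The sources used here do not say which part of the gene was deleted, so this probe need not report the deletion, and directions between KO and WT rest on the labels alone. In RNA from whole liver, fewer cells of a type and less RNA per cell cannot be told apart.

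Promoter sequence was at hand for 6 of the 8 genes, from RefSeq on mouse build GRCm38.p6. Each window searched covered the 250 bases before and the 50 bases after an annotated transcript start (2 starts for Bcl6 and 2 for Cux2). The motifs named here were searched on both strands. The STAT5 motif TTCNNNGAA was in 8.30% of 32851 windows of this kind and in 3 of the 8 windows of the set, those of Bcl6 and A1bg. The CUX motif ATCGAT was in 0.925% of windows and in 1 of the set, a window of Cux2. The BCL6 motif TTCCTAGAA, which is itself a form of the STAT5 motif, was in 0.411% of windows and the HNF4A motif CAAAGTCCA in 0.475%, and neither was in a window of the set. A match is a stretch of letters and not evidence of binding. The 3 sequences below are the 250 bases before the start. They were picked because they hold these motifs, in capitals. They belong to the set's 2 regulators and to the target with the largest difference between arrays. In Bcl6 the motifs start at positions -168, -122 and -88 relative to the transcript start, in Cux2 the motif starts at -72 and in A1bg at -84. The other Bcl6 window held 1 match, TTCTCAGAA, at -118.
Bcl6, chr16:23981284-23981533, minus strand: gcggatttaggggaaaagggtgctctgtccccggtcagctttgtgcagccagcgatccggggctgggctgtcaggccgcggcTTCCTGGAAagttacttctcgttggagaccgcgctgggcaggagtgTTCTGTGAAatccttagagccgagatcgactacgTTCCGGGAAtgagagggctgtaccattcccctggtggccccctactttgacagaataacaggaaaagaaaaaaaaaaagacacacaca
Cux2, chr5:122047826-122048075, minus strand: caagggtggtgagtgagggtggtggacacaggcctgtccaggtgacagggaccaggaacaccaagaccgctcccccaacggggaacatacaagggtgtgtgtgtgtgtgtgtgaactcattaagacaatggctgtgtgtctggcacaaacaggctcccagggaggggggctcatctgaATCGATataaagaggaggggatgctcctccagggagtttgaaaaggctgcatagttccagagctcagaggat
A1bg, chr15:60921271-60921520, minus strand: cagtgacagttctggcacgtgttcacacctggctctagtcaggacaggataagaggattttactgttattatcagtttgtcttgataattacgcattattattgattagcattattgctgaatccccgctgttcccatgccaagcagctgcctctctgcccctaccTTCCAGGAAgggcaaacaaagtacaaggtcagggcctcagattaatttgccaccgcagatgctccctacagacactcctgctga

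The array read each gene through 60-base probes, with 1 probe for every gene except Cux2, which had 2. Probe positions are those of build mm9, as the files give them. The probes of A1bg, Cyp2d9 and Cyp17a1 are shown in full as examples, for a gene with a lower signal and 2 with a higher signal in KO than in WT at both ages. The Cyp17a1 probe maps across 614 bases of genome, so its 60 bases do not lie side by side there.
A1bg probe, chr15:60751270-60751329, minus strand: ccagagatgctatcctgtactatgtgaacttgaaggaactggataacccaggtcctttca
Cyp2d9 probe, chr15:82285582-82285641, plus strand: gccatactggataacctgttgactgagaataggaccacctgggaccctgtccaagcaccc
Cyp17a1 probe, chr19:46742594-46743207, minus strand: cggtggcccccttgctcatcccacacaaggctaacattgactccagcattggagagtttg

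The regulators differed between the ages in both genotypes. The male-biased repressor Bcl6 was lower at 6 weeks, and the female-biased repressor Cux2 was higher. The Bcl6 probe lies at chr16:23965160-23965219 on the minus strand. Bcl6 had levels of 2.05 in KO and 1.47 in WT at 6 weeks, and of 5.75 in KO and 3.37 in WT at 3 weeks. Both arrays at 6 weeks lay below both at 3 weeks, KO lay above WT at each age, and the steps between all neighbouring levels exceeded 2 times the scanner error. For 6 over 3 weeks Bcl6 had log2 ratios of -1.49 in KO and -1.19 in WT. At 6 weeks the log2 ratio of KO over WT was 0.47, and at 3 weeks it was 0.77. Bcl6 is also a gene of germinal centre B cells. Of 8 B cell markers, 6 were well above background in KO and 7 in WT at 6 weeks, and 7 in KO and 6 in WT at 3 weeks. Their summed level was 0.529 in KO and 1.03 in WT at 6 weeks and 1.0 in KO and 0.985 in WT at 3 weeks, and Blk was not well above background on any array. Pax5 made up part of these sums, with levels of 0.0114 in KO and 0.320 in WT at 6 weeks and of 0.243 in KO and 0.0129 in WT at 3 weeks, and was well above background on the 2 arrays where it was high. Their part in the Bcl6 levels was not tested.

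Cux2 had levels of 2.26 in KO and 1.19 in WT at 6 weeks, and of 0.388 in KO and 0.590 in WT at 3 weeks, on its brighter probe at chr5:122308503-122308562. KO was the highest of the 4 arrays at 6 weeks and the lowest at 3 weeks, with WT between, and all neighbouring levels were apart by more than 2 times the scanner error. At 6 weeks the log2 ratio of KO over WT was 0.92, and at 3 weeks it was -0.61, of the other sign. For 6 over 3 weeks the log2 ratio was 2.54 in KO, a 5.83-fold difference, and 1.02 in WT. The second probe, at chr5:122310226-122310285, gave the same signs. Its log2 ratios of KO over WT were 0.97 at 6 weeks and -0.43 at 3 weeks, and those of 6 over 3 weeks were 2.12 in KO and 0.72 in WT. In WT the gene therefore passed 2-fold on the brighter probe and did not on the second, and it stood at 0.98 on the brighter probe after normexp background correction with quantile normalization. Cux2 is also expressed by neurons. Of 6 neuronal markers, 3 were well above background in KO and WT at 6 weeks, 4 in KO and 3 in WT at 3 weeks, and Gad1 and Slc17a7 were not well above background on any array. Their summed level was 3.98 in KO and 4.55 in WT at 6 weeks and 2.89 in KO and 3.07 in WT at 3 weeks, and their part in the Cux2 levels was not tested.

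**Figure D1:**
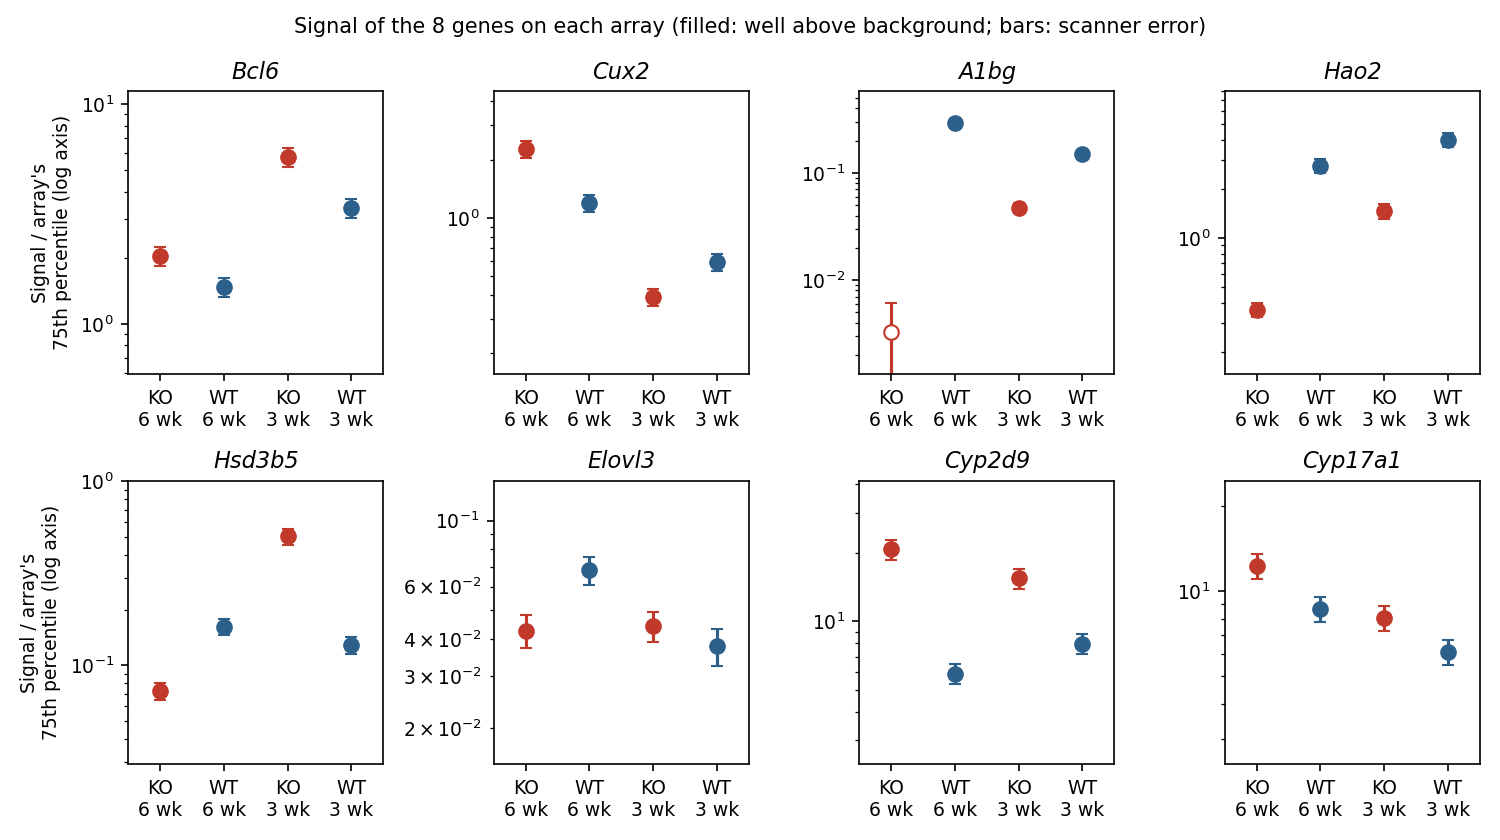
Signal of each of the 8 genes on the 4 arrays, as a multiple of the array's 75th percentile on a log axis, with KO in red and WT in blue; 1 point is 1 array, bars are the scanner software's error, and an open point was not well above background. Bcl6 sits lower and Cux2 higher at 6 weeks than at 3 weeks in both genotypes, A1bg and Hao2 sit lower in KO at both ages, Cyp2d9 sits higher in KO at both ages, and Hsd3b5 is highest in KO at 3 weeks (0.504) and lowest in KO at 6 weeks (0.0726).

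Both female-biased target genes were lower in KO at both ages, and lowest in KO at 6 weeks. A1bg encodes a plasma glycoprotein of the immunoglobulin superfamily. Its level was 0.00329 in KO and 0.291 in WT at 6 weeks, and 0.0473 in KO and 0.149 in WT at 3 weeks. The signal in KO at 6 weeks was not well above background, with a scanner error of 84.3%, so ratios against it are bounds taken at 0.0135, the dimmest level well above background on that array. WT lay above KO at both ages, and the 4 levels were ordered WT at 6 weeks, WT at 3 weeks, KO at 3 weeks and KO at 6 weeks. A1bg was at least 21.5-fold lower in KO than in WT at 6 weeks, and its log2 ratio of KO over WT at 3 weeks was -1.66. In KO it was at least 3.5-fold lower at 6 than at 3 weeks, whereas in WT the log2 ratio of 6 over 3 weeks was 0.96. With normexp background correction and quantile normalization the log2 ratio of KO over WT was at or below -2.64 at 6 weeks and was -1.08 at 3 weeks. Under that setting 6 over 3 weeks in KO was at or below -0.73, a bound that does not reach 2-fold and leaves the size of the difference unknown.

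Hao2 encodes a peroxisomal oxidase of long-chain hydroxy acids, and its probe, at chr3:98678664-98678723, was printed in 10 spots per array. Its mean level was 0.361 in KO and 2.78 in WT at 6 weeks, and 1.46 in KO and 4.0 in WT at 3 weeks. Spots ranged from 0.317 to 0.505 in KO and from 2.5 to 3.17 in WT at 6 weeks, after 1 spot marked as an outlier in KO, at 0.623, was left out. At 3 weeks they ranged from 1.31 to 1.62 in KO and from 3.69 to 4.22 in WT. The spots of the 4 arrays did not overlap, and the 4 levels were ordered from WT at 3 weeks to KO at 6 weeks, with every neighbouring pair apart by more than 2 times the scanner error. The log2 SD between spots was 0.21 in KO and 0.11 in WT at 6 weeks and 0.11 in KO and 0.066 in WT at 3 weeks. KO over WT stood at -2.94 on the log2 scale at 6 weeks, a 7.68-fold difference, and -1.45 at 3 weeks. For 6 over 3 weeks the log2 ratio was -2.02 in KO and -0.53 in WT. Hao2 is abundant in kidney as well. Of 9 kidney markers, 5 were well above background in KO and 4 in WT at each age, with summed levels of 0.418 in KO and 0.388 in WT at 6 weeks and 0.532 in KO and 0.424 in WT at 3 weeks. Umod, Slc12a1 and Slc12a3 were not well above background on any array, and the part of kidney transcripts in the Hao2 levels was not tested.

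**Figure D2:**
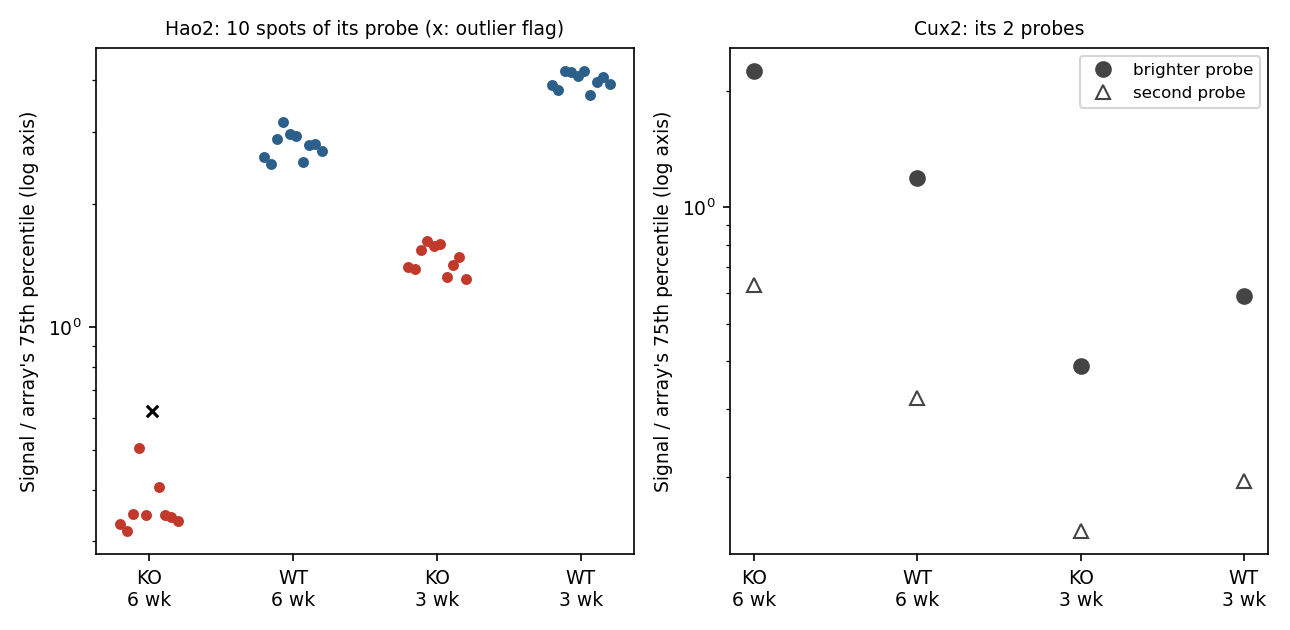
Left, levels of the 10 spots of the Hao2 probe on each array, with the spot marked as an outlier as a cross; right, levels of the 2 Cux2 probes, both as signal over the array's 75th percentile on a log axis. The Hao2 spots of the 4 arrays form separate bands, from 0.317 to 0.505 in KO at 6 weeks up to 3.69 to 4.22 in WT at 3 weeks, and both Cux2 probes are highest in KO at 6 weeks and lowest in KO at 3 weeks.

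The 3 male-biased target genes did not share a pattern. Hsd3b5 encodes a member of the 3-beta-hydroxysteroid dehydrogenase family that acts as a ketosteroid reductase in male mouse liver, and its probe lies at chr3:98422576-98422635. Its level was 0.0726 in KO and 0.163 in WT at 6 weeks, and 0.504 in KO and 0.128 in WT at 3 weeks. KO at 3 weeks stood above the other 3 arrays and KO at 6 weeks below them, while the 2 WT arrays were not apart by more than 2 times the scanner error. On the log2 scale KO over WT stood at -1.16 at 6 weeks and at 1.97 at 3 weeks. For 6 over 3 weeks Hsd3b5 stood at -2.80 in KO on the log2 scale, a 6.95-fold difference, and at 0.34 in WT. The difference between the ratios at the 2 ages was -3.14 on the log2 scale. With normexp background correction and quantile normalization the ratio at 6 weeks was -0.83, within 2-fold, and that at 3 weeks was 1.56. Under the same setting 6 over 3 weeks in KO was -2.16, and the difference between the ratios at the 2 ages was -2.39. The longest stretch that the Hsd3b5 probe shared with the array probe of any other gene was 23 bases, with Hsd3b4, so signal from related transcripts is uncertain. Hsd3b4 itself was well above background in KO at both ages, with levels of 0.0254 at 6 weeks and 0.0344 at 3 weeks, and not in WT.

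Elovl3 encodes an elongase of very long chain fatty acids, read by a probe at chr19:46209762-46209821, and it was dim on every array. Its level was 0.0426 in KO and 0.0681 in WT at 6 weeks, and 0.0441 in KO and 0.0378 in WT at 3 weeks. WT at 6 weeks was apart from the other 3 arrays, which did not differ from their neighbours by more than 2 times the scanner error. On the log2 scale KO over WT was -0.68 at 6 weeks, and the value of 0.22 at 3 weeks lay within its scanner error of 0.27. For 6 over 3 weeks Elovl3 had log2 ratios of -0.05 in KO and 0.85 in WT. With normexp background correction and quantile normalization KO over WT at 6 weeks was -0.37, and 6 over 3 weeks in WT was 0.45. Both then lay under 2 times their scanner errors of 0.24 and 0.26, so the place of WT at 6 weeks depends on the processing. Elovl3 is also a gene of brown fat. Of 6 brown fat markers, 5 were well above background in KO and 5 in WT at 6 weeks, and 5 in KO and 4 in WT at 3 weeks. Their summed level was 0.299 in KO and 0.317 in WT at 6 weeks and 0.276 in KO and 0.755 in WT at 3 weeks, with Ucp1 and Cidea well above background on all arrays, and their part in the Elovl3 levels was not tested.

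Cyp2d9, a testosterone hydroxylase, was higher in KO at both ages. Its level was 20.7 in KO and 5.90 in WT at 6 weeks, and 15.5 in KO and 7.98 in WT at 3 weeks. Both KO arrays lay above both WT arrays, and all neighbouring levels were apart by more than 2 times the scanner error. The log2 ratio of KO over WT was 1.81 at 6 weeks, a 3.51-fold difference, and 0.95 at 3 weeks. The log2 ratio of 6 over 3 weeks was 0.42 in KO and -0.44 in WT. In KO it was 0.15 with normexp background correction and quantile normalization, inside its scanner error of 0.20, and 0.21 with quantile normalization alone. Of 8 other Cyp2d genes on the array, 0 were past 2-fold in either comparison of KO with WT. Over all genes 11.0% were past 2-fold at 6 weeks and 5.76% at 3 weeks. At 6 weeks all but Cyp2d40, at -0.23, lay above 0 on the log2 scale, up to 0.57. At 3 weeks they lay between -0.68 and 0.16. Cyp2d34, whose probe shares 17 bases with that of Cyp2d9, stood at 0.46 at 6 weeks and at -0.06 at 3 weeks.

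Cyp17a1, the steroid 17-alpha-hydroxylase and lyase, was higher in KO than in WT and higher at 6 than at 3 weeks, with a log2 range of 1.01 over the 4 arrays. Its level was 12.3 in KO and 8.67 in WT at 6 weeks, and 8.06 in KO and 6.10 in WT at 3 weeks. KO at 6 weeks was apart from the rest, whereas WT at 6 weeks and KO at 3 weeks, and KO and WT at 3 weeks, were not apart by more than 2 times the scanner error. The log2 ratio of KO over WT was 0.51 at 6 weeks and 0.40 at 3 weeks, and that of 6 over 3 weeks was 0.61 in KO and 0.51 in WT. Of 9 adrenal and gonadal markers on the array, 3 were well above background in KO and WT at 6 weeks, 4 in KO and 3 in WT at 3 weeks, and Cyp11b1, Cyp11b2, Cyp19a1, Hsd17b3 and Mc2r were not well above background on any array. Their summed level was 1.77 in KO and 1.67 in WT at 6 weeks and 0.922 in KO and 1.11 in WT at 3 weeks, and their part in the Cyp17a1 levels was not tested.

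KO was compared with WT at each age. At 6 weeks 4 of the 8 genes were past 2-fold, Cyp2d9 higher in KO and A1bg, Hao2 and Hsd3b5 lower. Over all 21384 genes measured in this comparison, 11.0% were past 2-fold, with 6.49% on the higher side and 4.54% on the lower. At 3 weeks Hsd3b5 was past 2-fold on the higher side and A1bg and Hao2 on the lower, 3 of the 8. Over all 21757 genes measured, 5.76% were past 2-fold, with 2.86% on the higher side and 2.90% on the lower. Since the genes were chosen on these ratios, nothing is read from their counts. Over the 8 genes the median log2 ratio was -0.10 at 6 weeks and 0.31 at 3 weeks, beside 0.05 and 0.00 over all genes measured.

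**Figure D3:**
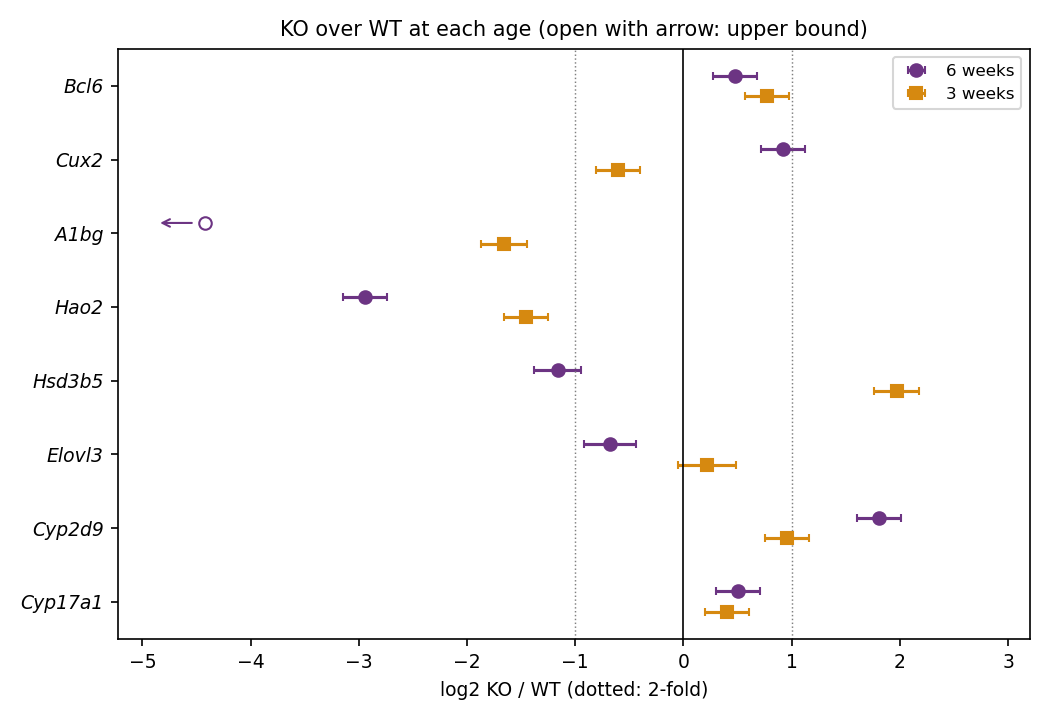
Log2 ratio of KO over WT for each gene at 6 weeks (circles) and 3 weeks (squares), with the scanner error as bars, dotted lines at 2-fold and an open point with an arrow for a bound. A1bg and Hao2 lie left of the dotted line at both ages, Cux2, Hsd3b5 and Elovl3 lie on opposite sides of 0 at the 2 ages, and Bcl6, Cyp2d9 and Cyp17a1 lie right of 0 at both.

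The ages were compared within each genotype, which uses the same 4 arrays in other pairs. In KO 5 of the 8 genes were past 2-fold, Cux2 higher at 6 weeks and Bcl6, A1bg, Hao2 and Hsd3b5 lower. Over all 21970 genes measured in KO, 12.3% were past 2-fold, with 6.02% on the higher side and 6.26% on the lower. In WT 2 of the 8 were past 2-fold, Cux2 higher and Bcl6 lower. Over all 21166 genes measured in WT, 9.50% were past 2-fold, with 3.64% on the higher side and 5.85% on the lower. Over the 8 genes the median log2 ratio was -0.77 in KO and 0.42 in WT, beside 0.06 and 0.01 over all genes. The difference between the KO over WT ratios at 6 and at 3 weeks could be formed for the 7 genes well above background on all 4 arrays, which leaves out A1bg. It was past 4-fold for Hsd3b5 alone, in the lower direction, where 1.52% of 18870 genes were past 4-fold, with 0.837% on the higher side and 0.684% on the lower. For the other 6 genes it was 1.53 for Cux2, 0.86 for Cyp2d9, 0.11 for Cyp17a1, -0.30 for Bcl6, -0.90 for Elovl3 and -1.49 for Hao2 on the log2 scale. The scanner error of this difference was 0.29 for Bcl6, so that of Bcl6 is of the size of its error.

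**Figure D4:**
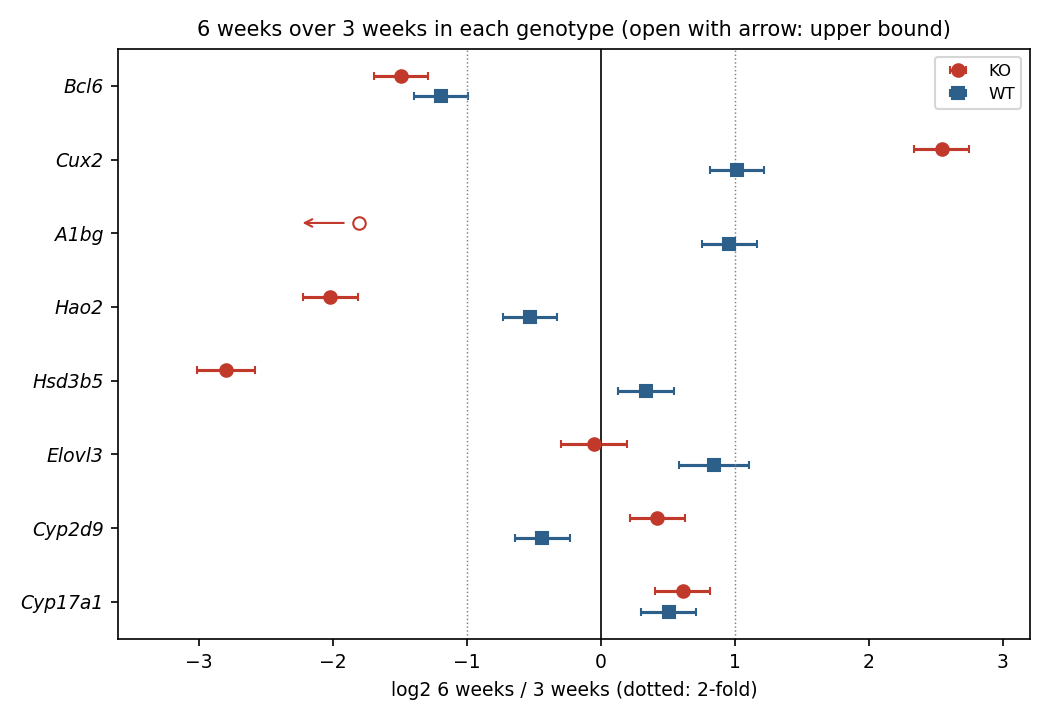
Log2 ratio of 6 weeks over 3 weeks for each gene in KO (circles) and WT (squares), with the scanner error as bars, dotted lines at 2-fold and an open point with an arrow for a bound. Cux2 lies right and Bcl6 left of 0 in both genotypes, Hsd3b5 lies at -2.80 in KO and 0.34 in WT, and A1bg lies at or below -1.81 in KO and at 0.96 in WT.

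Other sex-biased liver genes were listed to set the 8 in context, leaving out the Cyp3a, Cyp4a and Mup families and the 8 themselves. These lists were drawn up with results of these arrays known and are described by counts past 2-fold and medians, to be read beside the shares and medians of all genes given above. The median of the female-biased genes lay below 0 in KO over WT at 3 weeks and near 0 at 6 weeks. At 3 weeks 8 of 19 measured female-biased genes were lower in KO past 2-fold and 0 higher, and their median log2 ratio was -0.91, or -0.66 with the mean of all probes of a gene. Among them the organic anion transporter Slc22a26 had a log2 ratio of -2.06, Cyp2b13 of -1.60 and Prom1 of -1.60. At 6 weeks 3 of 20 were higher past 2-fold and 2 lower, around a median of 0.12, with Prom1 at -2.89 and the receptor gene Ntrk2 at -1.01 below, and Atp6v0d2 at 1.64 and the flavin monooxygenase Fmo2 at 1.08 among those above. Between the ages 11 of 20 were higher past 2-fold at 6 weeks in KO and 1 lower, with a median of 1.03, against 6 higher and 1 lower in WT, with a median of 0.47. The sulfotransferase Sult3a1 had the largest of these ratios in KO, 5.33, followed by the hepcidin Hamp2 at 3.71 and Slc22a26 at 2.93, and the 1 lower gene was Sult2a1 at -1.64. In WT Sult3a1 stood at 4.40 or above, as a bound, Hamp2 at 1.94, Acot3 at 1.28 and Sult2a1, the 1 lower gene, at -1.36. A1bg and Hao2 thus lay on the side of the female-biased median in KO over WT at 3 weeks. In KO over WT at 6 weeks A1bg stood at or below -4.42 and Hao2 at -2.94, beside the list's median of 0.12. At 6 over 3 weeks in KO both genes were lower and the list's median was higher.

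Male-biased genes other than those of the set had medians between -0.14 and 0.06 in every comparison. At 6 weeks 1 of 19 was higher in KO past 2-fold and 0 were lower, with a median of 0.06, and Susd4 had a log2 ratio of 2.07, Ihh of -0.98 and Nat8 of 0.91. At 3 weeks 2 of 18 were higher and 0 lower, with a median of 0.05, and the transporter Slco1a1 stood at 3.40, the growth factor receptor gene Egfr at 1.12 and Susd4 at 0.99. Slco1a1 had levels of 0.301 in KO and 0.248 in WT at 6 weeks and of 0.599 in KO and 0.0567 in WT at 3 weeks, so like Hsd3b5 it was highest in KO at 3 weeks. Between the ages 1 of 18 was higher at 6 weeks and 0 lower in KO, with a median of -0.14, and the hydroxylase gene Cyp7b1 stood at 1.55, Slco1a1 at -1.0 and Egfr at -0.96. In WT 1 of 19 was higher and 2 lower, with a median of 0.06, and Slco1a1 stood at 2.13, Nat8 at -1.97 and Susd4 at -1.91.

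**Figure D5:**
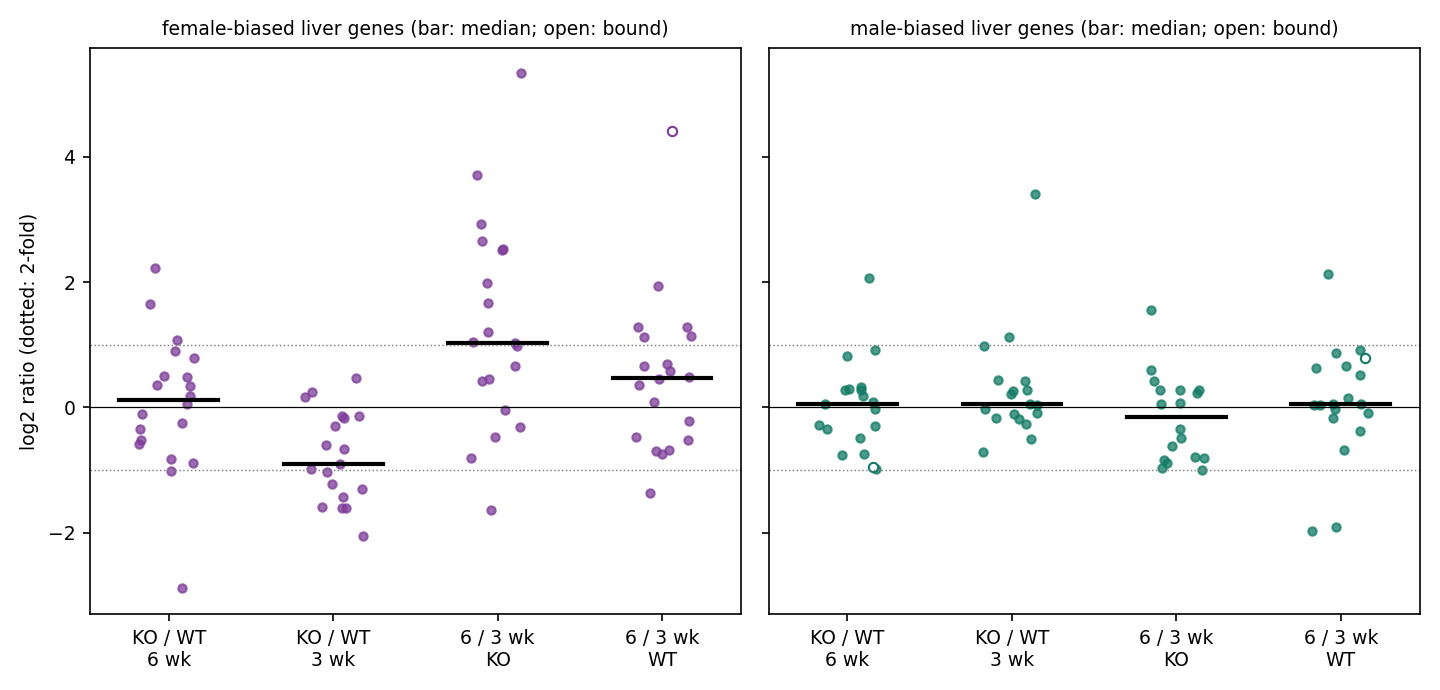
Log2 ratios of female-biased (left) and male-biased (right) liver genes outside the set in the 4 comparisons, 1 point per gene, with black bars at the medians, open points for bounds and dotted lines at 2-fold. The female-biased median is -0.91 for KO over WT at 3 weeks and 1.03 for 6 over 3 weeks in KO, while the male-biased medians lie between -0.14 and 0.06.

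Of 18 genes of growth hormone signalling, 1 was higher past 2-fold in KO at 6 weeks, the growth factor binding protein gene Igfbp1 at 1.20, and 0 were lower, and at 3 weeks 0 were past 2-fold in either direction. The medians were -0.07 at 6 weeks and -0.06 at 3 weeks. The receptor gene Ghr had log2 ratios of KO over WT of 0.08 at 6 weeks and -0.24 at 3 weeks. Stat5b, the transcription factor downstream of it, had -0.03 and -0.01. Igf1, the hormone the liver secretes in response, had -0.18 and -0.20. Socs2, a feedback inhibitor, had -0.17 and 0.15, and its log2 ratio of 6 over 3 weeks was 0.84 in KO and 1.16 in WT. Between the ages in KO, the feedback inhibitor gene Cish at 1.20 was 1 of the 18 past 2-fold higher and Igfbp3 at -1.02 was 1 past 2-fold lower, with a median of 0.16. In WT 1 was higher, which was Socs2, and 0 were lower, with a median of 0.07. Between the ages 12.3% of all genes were past 2-fold in KO and 9.50% in WT. Ghr, Stat5b, Igf1 and Socs2 all lay within 2-fold between KO and WT at both ages, as did most genes measured. Over all genes 11.0% were past 2-fold at 6 weeks and 5.76% at 3 weeks.

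Among 16 liver transcription factors and receptors, 2 were higher past 2-fold in KO at 6 weeks, among them the nuclear receptor gene Nr1i3 at 1.04, and 0 were lower, with a median of 0.15. At 3 weeks 0 of 15 measured were past 2-fold, with a median of -0.01, and Esr1, the estrogen receptor, stood at -0.69. Between the ages 2 were higher and 0 lower in KO, with a median of 0.34 and Nr1i3 at 1.51 among them, and in WT 0 of 16 were past 2-fold, with a median of 0.14. The shares of all genes past 2-fold were 11.0% at 6 weeks, 5.76% at 3 weeks, 12.3% between the ages in KO and 9.50% in WT.

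Of 22 measured family relatives of the 8 genes, 1 was higher past 2-fold and 2 lower in KO at 6 weeks, with a median of 0.12, the lower ones being the elongase Elovl5 at -1.30 and Hsd3b1 at -1.10. At 3 weeks 1 was higher and 0 lower, with a median of -0.02. The higher gene was Hsd3b4 both times, at 1.32 or above at 6 weeks and 1.19 or above at 3 weeks, as bounds. Between the ages 0 were higher and 3 lower in KO, with a median of 0.10, and 1 of 21 was higher and 3 lower in WT, with a median of 0.13 and Elovl5 as the higher one at 1.1. The 3 lower genes were in both genotypes Hsd3b1, Bcl6b and Elovl7. All genes measured were past 2-fold in 11.0% at 6 weeks, 5.76% at 3 weeks, 12.3% between the ages in KO and 9.50% in WT. Hsd3b1 had levels of 0.0417 in KO and 0.0891 in WT at 6 weeks, and of 1.35 in KO and 0.869 in WT at 3 weeks. It was thus lower at 6 weeks in both genotypes, unlike Hsd3b5, whose WT levels were close at the 2 ages.

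Elovl3 and other liver genes follow the time of day and feeding, so these programmes were listed too. Their counts stand beside 6.49% of all genes higher past 2-fold and 4.54% lower in KO at 6 weeks, and 5.76% in either direction at 3 weeks. Between the ages the shares in either direction were 12.3% in KO and 9.50% in WT. Of 16 clock genes, 7 were higher past 2-fold and 3 lower in KO at 6 weeks, with a median of 0.89. Ciart stood at 2.97, Per3 at 1.94 and Cry2 at 1.37, and the lower genes were Nfil3 at -1.30, Arntl at -1.23 and Npas2 at or below -1.75. At 3 weeks 0 were higher and 1 lower, with a median of -0.09, and Npas2 stood at -2.32. Between the ages 6 were higher and 3 lower in KO, with a median of 0.81, against 1 higher and 4 lower in WT, with a median of -0.67. Of 10 fasting response genes, 2 were higher and 1 lower in KO at 6 weeks, with a median of 0.37, and the hormone gene Fgf21 stood at -1.96, Lpin1 at 1.5 and Ppargc1a at 1.25. At 3 weeks 0 were past 2-fold, with a median of 0.14, and between the ages 0 were past 2-fold in KO, with a median of 0.17, and 1 was higher in WT, Fgf21 at 1.29, with a median of 0.01. The labels used here give no hour of collection, and the part of the clock genes in the values of the 8 was not tested.

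For each of the 8 that was well above background on all arrays and had a log2 range of at least 1, the genes with the most similar pattern were taken among 15234 others, by the root mean square difference of log2 levels, each centred on its own mean over the 4 arrays. With 4 arrays many genes can look alike, so these are descriptions. Nearest to Bcl6 were Apold1 at 0.041, Obsl1 at 0.047 and Igdcc4 at 0.085. Nearest to Cux2 were Hnf4aos, an antisense transcript of Hnf4a, at 0.090, Lnx1 at 0.13 and Tff2 at 0.15. Hnf4aos had levels of 3.55 in KO and 2.22 in WT at 6 weeks and of 0.663 in KO and 0.962 in WT at 3 weeks. Nearest to Hao2 were the sulfotransferase Sult2a3 at 0.18, Cyp2c55 at 0.27 and Cyp3a44 at 0.31. Sult2a3 had levels of 0.315 in KO and 2.33 in WT at 6 weeks and of 1.37 in KO and 2.71 in WT at 3 weeks. Near to Hsd3b5 were Gm2848 at 0.20 and Myo9a at 0.24. Nearest to Cyp2d9 were Mylk2 at 0.14, Ldhb at 0.16 and Jsrp1 at 0.16, with 29 genes within 0.25. Mylk2 and Jsrp1 are known as genes of skeletal muscle, whose markers were also higher in KO at both ages. For 6 over 3 weeks the medians of those markers were -0.91 in KO and 1.40 in WT (10 measured, bounds among them). Cyp2d9 stood at 0.42 in KO and -0.44 in WT, and at 0.15 in KO with normexp background correction and quantile normalization. The part of muscle transcripts in the Cyp2d9 levels was not tested. Mylk2 had levels of 0.0916 in KO and 0.0287 in WT at 6 weeks and of 0.0579 in KO and 0.0344 in WT at 3 weeks. Cyp17a1 had 2113 genes within 0.25, led by Rap1gap, Gal3st1 and Pdk2, so its pattern is shared widely. A1bg, not well above background on 1 array, and Elovl3, with a log2 range of 0.85, were left out of this comparison.

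Some of the genes are neighbours. The probes of Hao2 and Hsd3b5 lie 256 kb apart on chromosome 3 and those of Elovl3 and Cyp17a1 533 kb apart on chromosome 19. Hao2 and Hsd3b5 were both lower in KO than in WT at 6 weeks (-2.94 and -1.16 on the log2 scale) and lay on opposite sides of 0 at 3 weeks (-1.45 and 1.97). Elovl3 and Cyp17a1 lay on opposite sides of 0 at 6 weeks (-0.68 and 0.51) and on the same side at 3 weeks (0.22 and 0.40).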

How the data were processed

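Total RNA from livers was pooled by group and 1 pool was hybridised per array, per the labels' protocols. The deposited intensity values are background-subtracted signals that Agilent's Feature Extraction, version 11.5.1.1, produced (per the submitters' processing notes), and are not scaled between arrays, per the file headers. Deposited alongside, per the file headers, are other values of 0 or 1 that mark a spot as well above background, as saturated or as an outlier. The authors' deposited value table holds the same intensity as a ratio to each array's 75th percentile: dividing it by that quotient gave 1.0 on every array. Its column medians were 0.0798 in KO and 0.0778 in WT at 6 weeks and 0.0815 in KO and 0.0797 in WT at 3 weeks.

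Signals were scaled to the 75th percentile over non-control spots. Outlier spots, 189 to 252 per array, were left out, spots of a probe were averaged, and the brightest probe of a gene was used. Of 39255 probes, 27393 were named by accession, 3523 by symbol and 402 by synonym through RefSeq, 9 by the members' names, and 7928 kept the name in the file. A comparison took the genes whose signal was well above background on 1 or both of its arrays. Where the other array was dim, the ratio is given as a bound, with the dim side set to that array's dimmest level well above background or, if higher, to its own signal. With 1 array per group no test was possible and ratios were counted past 2-fold, and differences between ages past 4-fold. Precision is limited by the number of arrays. The steps were tested on simulated data: of 50 genes changed 2.5-fold at 6 weeks, among 18870 in the step, 48 were counted past 2-fold. Of 50 changed 1.5-fold, 1 was, and of 18670 left unchanged, 0 were. The simulated arrays otherwise differed only by noise of about the scanner software's error, with no difference between pools of animals. These counts therefore check the counting step and do not give its sensitivity in the real arrays.

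The 8 genes, the lists and the rule for named genes were chosen with earlier results of these data known. The rule took the 8 genes, Pnpla7, 4 growth hormone signalling genes, the 3 largest ratios of each list and the 3 nearest genes per pattern. Hsd3b4, Cyp2d34, single marker genes and list members past 2-fold beyond these 3 were named after their values were seen. A few genes within the rule are left unreported. Alternatives were normexp background correction (offset 50) with quantile normalization, quantile normalization alone, median scaling, averaging a gene's probes, keeping outlier spots, using the authors' values, other thresholds and other filters on dim probes. Python 3.11.15, numpy 2.4.6, pandas 2.3.3, R 4.3.3 and limma 3.58.1 (background correction and quantile normalization) were used.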

Additional observations from a re-analysis of the deposited data

Results flagged for a closer look

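Several values lay on opposite sides of 0 in groups compared the same way. With 1 array per group none of these differences was tested. KO over WT had opposite signs at the 2 ages for 3 of the 8 genes. For Cux2 the log2 value was 0.92 at 6 weeks, against -0.61 at 3 weeks, a difference of 1.53. For Hsd3b5 it was -1.16 at 6 weeks, against 1.97 at 3 weeks, a difference of -3.14. For Elovl3 it was -0.68 at 6 weeks, against 0.22 at 3 weeks, a difference of -0.90, and the value at 3 weeks was within its scanner error. That difference was -0.50 with normexp background correction and quantile normalization. For 6 over 3 weeks the signs were opposite in the 2 genotypes for 4 genes at the main scaling, and for Elovl3 and Cyp2d9 the sign in KO lay within scanner error at that or another setting. A1bg stood at or below -1.81 in KO and at 0.96 in WT, a difference at or below -2.77. Cyp2d9 stood at 0.42 in KO and -0.44 in WT, a difference of 0.86, and its KO value was 0.15 with normexp background correction and quantile normalization, inside its scanner error of 0.20. Hsd3b5 stood at -2.80 in KO and 0.34 in WT, and Elovl3 at -0.05 in KO and 0.85 in WT, the KO value inside its scanner error of 0.25 and of the other sign with median scaling. For these last genes the difference between genotypes is the same number as that between ages, since it rests on the same 4 arrays.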

How the results depend on the processing

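The 39 log2 ratios of the 8 genes were recomputed under 6 settings, giving 234 values. In 1 of them the sign differed: Elovl3 at 6 over 3 weeks in KO was -0.05, and 0.00075 with median scaling. Normexp background correction with quantile normalization moved 12 ratios by more than their scanner error (0.2 for the A1bg bounds), all of them towards 0 and among A1bg, Hao2, Hsd3b5, Elovl3 and Cyp2d9. Quantile normalization alone moved 1 (Cyp2d9 in KO over the ages, 0.21) and the mean of all probes 1 (Cux2 in KO over the ages, 2.33). The count of genes past 2-fold at 6 over 3 weeks in WT was 2, against 1 under the normexp setting, 1 with the mean of all probes, 3 with quantile normalization alone, 3 with median scaling, 4 at 1.5-fold and 0 at 3-fold. The count for KO over WT at 3 weeks was 3, against 6 at 1.5-fold. The count for the difference between ages was 1 at 4-fold, against 3 at the lower threshold, 0 at 9-fold and 2 with no filter on dim probes. With no filter the median over all genes at 6 over 3 weeks in WT was -0.09, against 0.01. No paired analysis was possible because each group has 1 array. Signal over background limits A1bg and Elovl3. The cause of the moves under normexp and the other scalings was not tested.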
